A study of Mus musculus with 6 samples.

Results

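The comparison addresses how tumor-associated immune cells differed when anti-PD-L1 was added to 2-deoxy-D-glucose (2DG). Cells of the library from 1 mouse given 2DG plus anti-PD-L1 (the combination library) were set against cells of the library from 1 mouse given 2DG alone (the 2DG library). After cells with fewer than 250 detected genes or with more than 5% mitochondrial UMIs were left out, 9026 cells remained of 9948 in the combination library and 7703 of 8701 in the 2DG library, together 16729 of the 51633 cells kept from all 6 libraries. A UMI (unique molecular identifier) stands for 1 captured RNA molecule. By their marker genes, 7094 and 6019 of these cells fell into 7 immune classes: T, natural killer (NK), B, neutrophil, monocyte, macrophage and dendritic cells. With 1 mouse and 1 library on each side there was no replicate, so no test between the treatments was possible. Intervals are given at 95% and cover counting error only, and differences between mice, between library preparations and between treatments cannot be told apart.

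2DG is a glucose analog that slows glycolysis and, because it also resembles mannose, disturbs the building of N-linked glycans. PD-L1 (gene Cd274) is a ligand that myeloid and tumor cells carry, and it dampens T cells through their receptor PD-1 (gene Pdcd1); the antibody blocks that contact. In tumors, T cells released from this brake are known to make more interferon gamma, to which monocytes and macrophages answer with chemokines such as Cxcl9 and Cxcl10 that draw further T cells.

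Per the study's methods, tumors of KPCA, a mouse ovarian cancer line able to repair DNA by homologous recombination, were grown in the ovarian bursa of female C57BL/6 mice of 6 to 8 weeks. Both mice received 2DG at 500 mg/kg by intraperitoneal injection every 2 days from day 9. The combination mouse also received anti-PD-L1 at 5 mg/kg, 2 times a week for 3 weeks, and both were sacrificed on day 30. The other 4 libraries, also from 1 mouse each, were control (solvent and rat IgG), anti-PD-L1 alone, 2FF (2-fluorofucose, an inhibitor of fucosylation) and 2FF plus anti-PD-L1. In the labels 2FF is named 2F-Peracetyl-Fucose. Per the methods, tumor cells for 2FF treatment were exposed to 2FF before injection, and mice received it by gavage after implantation. The 2FF and 2DG pairs thus differ in timing and route as well as in drug. The labels give the tissue as lymph node and the series text mentions mice of differing age, whereas the methods describe tumors. Of the 8 genes of the lymph node stroma list, Ccl21a had 0 or 1 UMIs in each of the 6 libraries, Madcam1 0 to 2 and Ccl19 0 to 6. The other 5 were found at low levels, Cr2 with 77 to 311 UMIs and Fcer2a with 50 to 323, both of which B cells carry too, Mfge8 with 278 to 512, Lyve1 with 15 to 85 and Cxcl13 with 0 to 508. Few tumor cells were seen either, with 6 cells of the 2DG library and 3 of the combination library gated as epithelial.

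The libraries were of like depth, with 61859753 UMIs and a median of 6745 per kept cell for 2DG, and 65369018 UMIs and a median of 6320.5 for the combination. They shared 24 cell barcodes, within the 16 to 34 shared by any pair of the 6 libraries. Cells that no class claimed were 21.0% and 20.8%. Of these, 66.4% in the 2DG library and 70.7% in the combination library had most markers of monocytes, macrophages or dendritic cells. The shares of those classes given below leave such cells out. Cells holding at least 3 markers of both a lymphoid and a myeloid class were 4.93% and 6.08%. In each class its own markers had the highest summed level of the 14 marker lists. The summed level of the 8 neutrophil markers in neutrophils was 86476 CPM (UMIs of a gene for each 1000000 UMIs of the class) in the 2DG library and 44599 CPM in the combination library, while in macrophages, for comparison, their own markers summed to 8030.5 and 8675 CPM. Because cells were gated by these same markers, their lead in each class follows from the gate and does not test the class names. The control library stood apart from the other 5, with neutrophils at 47.5% and T cells at 6.01% of the 7 classes, so values relative to it are given as they are and nothing is rested on them.

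B cells and monocytes took larger shares of the 7 classes in the combination library, and T cells, neutrophils and dendritic cells took smaller ones. T cells were 47.2% of the 2DG library (2843 cells) and 39.5% of the combination library (2803 cells), a difference of -7.72 percentage points (-9.42 to -6.02). Monocytes, the circulating precursors that enter inflamed tissue, were 22.01% (1325 cells) and 29.8% (2115 cells), a difference of 7.80 points (6.30 to 9.29). B cells were 1.98% (119 cells) and 5.99% (425 cells), 3.03-fold more, and this was the widest gap in proportion among the classes that were larger. Dendritic cells, which prime T cells, were 4.42% (266 cells) and 1.35% (96 cells), 3.27-fold less. NK cells were 4.19% and 5.50% (1.31 points, 0.573 to 2.04), and neutrophils 5.85% and 3.88% (-1.97 points, -2.72 to -1.23). Macrophages, at 14.3% and 13.96%, differed by -0.37 points with an interval that held 0 (-1.57 to 0.83).

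Because these are shares of 1 total, a larger class makes the others smaller, and ratios between classes show the shift without that total. There were 4.19 B cells per 100 T cells in the 2DG library and 15.2 in the combination library. Monocytes were 154 and 214 per 100 macrophages, and dendritic cells 30.9 and 9.70 per 100 macrophages. NK cells were 8.86 and 13.9 per 100 T cells. Over the other 4 libraries B cells ranged from 8.18 to 16.7 per 100 T cells, so the 2DG library was the lowest of the 6 in this ratio. Dendritic cells ranged from 11.5 to 27.9 per 100 macrophages over the other 4, and the 2DG and combination libraries were the highest and the lowest of the 6.

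**Figure D1:**
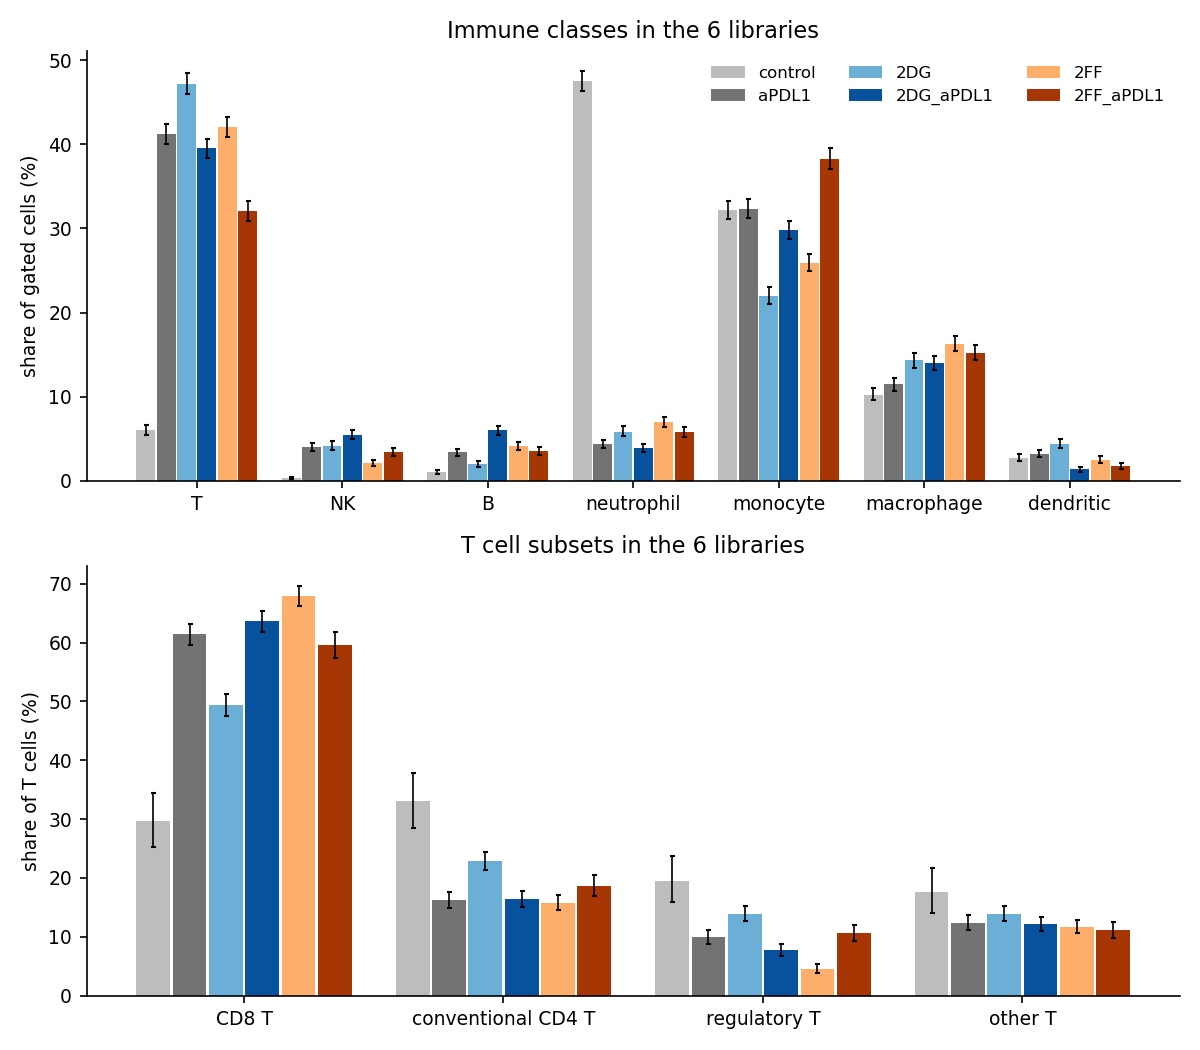
Shares of the 7 immune classes in percent of gated cells (vertical axis, upper panel) and of the T cell subsets in percent of T cells (lower panel) in the 6 libraries, 1 mouse each, with exact 95% binomial intervals that cover counting error only. The 2DG and combination libraries differ in T cells (47.2% and 39.5%) and monocytes (22.01% and 29.8%) in the upper panel and in CD8 T cells (49.3% and 63.6%) in the lower one, and the control library stands apart with 47.5% neutrophils.

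Among T cells, the make-up leaned towards CD8 cells, the killer T cells, in the combination library. CD8 T cells were 49.3% of the T cells in the 2DG library and 63.6% in the combination library, a difference of 14.3 points (11.7 to 16.8). Conventional CD4 (helper) T cells were 22.8% and 16.4%, a difference of -6.38 points (-8.44 to -4.31). Regulatory T cells, which carry Foxp3 and restrain other T cells, were 13.9% and 7.78%, a difference of -6.12 points (-7.73 to -4.50). There were thus 3.55 CD8 T cells for each regulatory T cell in the 2DG library and 8.18 in the combination library. In the control, anti-PD-L1, 2FF and 2FF plus anti-PD-L1 libraries CD8 T cells were 29.7%, 61.4%, 67.9% and 59.6% of T cells. In the same order there were 1.52, 6.19, 15.1 and 5.61 CD8 T cells for each regulatory T cell. The combination library thus lay within the range of the other libraries in both values. The rest, T cells with no UMI of Cd8a, Cd8b1 or Cd4 or with both kinds, were 13.9% and 12.1%. When every T cell with at least 2000 UMIs was thinned to that number before its subset was called, CD8 T cells were 44.6% and 59.4% and regulatory T cells 7.503% and 4.83%, a difference of -2.67 points for the latter. In cells, there were 1784 CD8, 461 conventional CD4 and 218 regulatory T cells in the combination library and 1403, 649 and 395 in the 2DG library.

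Some genes differed in the same direction across most classes, and these are given first, since a class-by-class account would repeat them. Levels are summed UMIs of a class in CPM, and differences are log2 ratios of the combination over the 2DG library after 5 CPM were added to both; genes with at least 50 UMIs over both libraries were compared, and a log2 ratio beyond 1 or -1 is called past 2-fold. With a log2 ratio above 0.58 (1.5-fold) in at least 5 of the 7 classes, 36 genes were higher, 0.511% of the 7039 genes compared in at least 5 classes, and 16 genes with a ratio below -0.58 were lower, 0.227%. The 2 genes lowest on average were Hspa1b and Hspa1a, inducible HSP70 chaperones that cells make under heat or other protein stress. Over all kept cells Hspa1b stood at 206 CPM in the 2DG library, where 37.2% of cells had a UMI of it, and at 36.8 CPM in the combination library, where 9.85% had one. Hspa1a stood at 195 and 58.9 CPM. In the other 4 libraries Hspa1b was found in 23.5% to 35.8% of cells, so by cells the combination library was the lowest of the 6 and the 2DG library the highest, while by level the control library was the highest (393 CPM).

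Hspa1b was lower in each of the 7 classes. In T cells Hspa1b was at 180.1 CPM (174 to 186) in the 2DG library and at 18.5 CPM (16.5 to 20.5) in the combination library, and its log2 ratio was -2.98. It was -3.04 in B cells, -2.83 in dendritic cells, -2.53 in monocytes, -1.89 in NK cells, -1.28 in neutrophils and -1.24 in macrophages. Hsph1, an HSP110 family partner of HSP70, was at -2.08 in dendritic cells, -1.82 in B cells, -1.31 in T cells, -0.94 in NK cells, -0.67 in macrophages and -0.47 in monocytes, and had too few UMIs in neutrophils. Dnajb1, a co-chaperone of HSP70, was at -0.73 in T cells and -1.26 in B cells. Of the constitutive chaperones of the same list, Hspa8 was between -0.01 and 0.36 over the 7 classes and Hsp90aa1 between -0.27 and -0.04. Among the values given here the lowest were those of Hspa1a, Hspa1b, Hsph1 and, in some classes, Dnajb1. Other members of the list, such as Hspd1, were below 0 in some classes as well. Over the compared genes of the heat shock list (10 of 11 in most classes) the median was -0.15 in T cells, -0.47 in B cells, -0.31 in macrophages, -0.41 in dendritic cells, -0.17 in monocytes and -0.12 in NK cells, beside medians over all genes between -0.07 and 0.06 in the 7 classes. In neutrophils it was -0.04 with 4 of 8 genes below 0, and above 0 with mixed cells removed (0.023). From 1 to 4 genes of the list were past 2-fold lower and 0 higher. Over all genes of the 7 classes 0.186% to 2.03% were past 2-fold lower and 0.494% to 2.09% higher.

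The inducible heat shock genes share the element that heat shock factor 1 reads, a pair of inverted GAA and TTC blocks. It was sought as GAANNTTC or TTCNNGAA, a palindromic pair of patterns and so the same on both strands, in the 250 bases upstream of the start (RefSeq, build GRCm38.p6). It was found in 12.8% of all 32851 promoters and in 7 of the 8 heat shock list genes with an entry, all but Dnajb1. The 2 figures are not alike, since a gene counted if any of its up to 3 promoters held a match. Hspd1 and Hspe1 share 1 stretch on opposite strands, and Hspa1a and Hspa1b are near copies. The 7 genes are thus not 7 separate occurrences of the element. Below are the stretches of 100 bases that hold it in the genes lowest in the combination library. They are printed on the strand of the gene, with the matches in capitals. Hspb1 and Hspd1 are printed beside them as list members that hold more than 1 match. Hspb1 was compared in macrophages alone (-0.57), where Hspa1b was at -1.24, Hspa1a at -0.68 and Hsph1 at -0.67. Hspd1 was from -0.58 to 0.02 over the classes.
Hspa1a, chr17:34972201-34972300, minus strand, and identically Hspa1b, chr17:34959283-34959382, minus strand: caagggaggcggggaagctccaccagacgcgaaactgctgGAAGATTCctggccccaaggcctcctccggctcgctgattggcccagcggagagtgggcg
Hsph1, chr5:149636337-149636436, minus strand: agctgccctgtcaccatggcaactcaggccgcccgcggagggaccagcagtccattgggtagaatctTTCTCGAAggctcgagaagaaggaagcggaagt
Hspb1, chr5:135887762-135887861, plus strand: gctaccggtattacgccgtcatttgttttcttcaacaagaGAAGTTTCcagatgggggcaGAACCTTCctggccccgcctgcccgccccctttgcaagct
Hspd1, chr1:55088017-55088116, minus strand: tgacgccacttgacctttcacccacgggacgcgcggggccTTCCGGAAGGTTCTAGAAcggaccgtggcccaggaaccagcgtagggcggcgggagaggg
Hspa1a (gene body chr17:34969190-34972156) and Hspa1b (chr17:34956436-34959238) lie next to each other on chromosome 17, and 247 of their 250 upstream bases are identical. They are closely related copies, and how the counting split reads between them was not tested, so their separate values are uncertain. A match describes the letters of the window and was not tested as a binding site.

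Other genes lower in all 7 classes were Taco1, Cdk8, Lars2, Camk1d and the unannotated Gm26917 and Gm42418. Gm42418, which overlaps a ribosomal RNA repeat and so counts a very abundant RNA, took 5.65% of all UMIs in the 2DG library and 2.41% in the combination library, against 2.85% to 4.37% in the other 4. Lars2, a mitochondrial leucyl-tRNA synthetase, stood at 1082 and 513 CPM over all cells. It followed the order of Gm42418 over all 6 libraries. With anti-PD-L1, control, 2FF plus anti-PD-L1 and 2FF, Lars2 was at 976, 801, 657 and 579 CPM. Gm42418 took 4.37%, 3.88%, 3.17% and 2.85% there. Whether Lars2 differed apart from Gm42418 was not tested. Mitochondrial UMIs took 1.98% in the 2DG library and 2.04% in the combination library, a gap far smaller than that of Gm42418. The part of the Gm42418 difference in the other values was not tested.

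The genes highest across classes were mostly those of acute inflammation and stimulation. Cxcl2, a chemokine that calls neutrophils, had log2 ratios from 0.86 in neutrophils to 2.64 in NK cells, and Ccl4, which calls T cells and monocytes, from 0.86 in macrophages to 2.04 in B cells. In lymphocytes part of this is UMIs of few cells, since in NK cells 1 cell gave 49.2% of the Cxcl2 of the combination library. Zfp36, a protein that destroys cytokine messages, was between 0.79 and 1.68, and Ell2, an elongation factor, between 0.70 and 1.66. Nr4a1, a receptor gene switched on within minutes of stimulation, passed 0.58 in 6 of the 7 classes and was at 0.30 in monocytes. H2-T23, the nonclassical class I molecule Qa-1 that NK and T cells read, was between 0.51 and 1.27. Slc7a11, the cystine importer, was higher in monocytes (91.3 CPM in the 2DG library and 327 CPM in the combination library). It was also higher in B cells (2.64), macrophages (1.61), dendritic cells (1.59) and neutrophils (0.81), and not in T cells (-0.25). In gated B cells neutrophil markers summed to 47.4 CPM in the 2DG library and 135.8 CPM in the combination library. In NK cells they summed to 19.2 and 24.5 CPM and in T cells to 258 and 212 CPM. Cells with a Ccl4 UMI were 5.88% and 9.41% of B cells. The part of myeloid RNA in the lymphocyte values was not tested.

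Of the 10 genes highest across classes, 8 had a promoter entry. A fixed form of the kappaB element that NF-kappaB binds, the letters in capitals below, was searched on both strands. Of the 8 genes 1, Cxcl2, held this exact form, as did 0.0852% of all promoters. Other forms of the element were not searched, so these figures do not give how often kappaB elements occur.
Cxcl2, chr5:90903762-90903861, plus strand: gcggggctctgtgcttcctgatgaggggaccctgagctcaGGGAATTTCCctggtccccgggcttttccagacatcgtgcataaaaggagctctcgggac
The match is in capitals. The absence of this pattern from the other 7 says only that these letters are not in their windows.

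**Figure D2:**
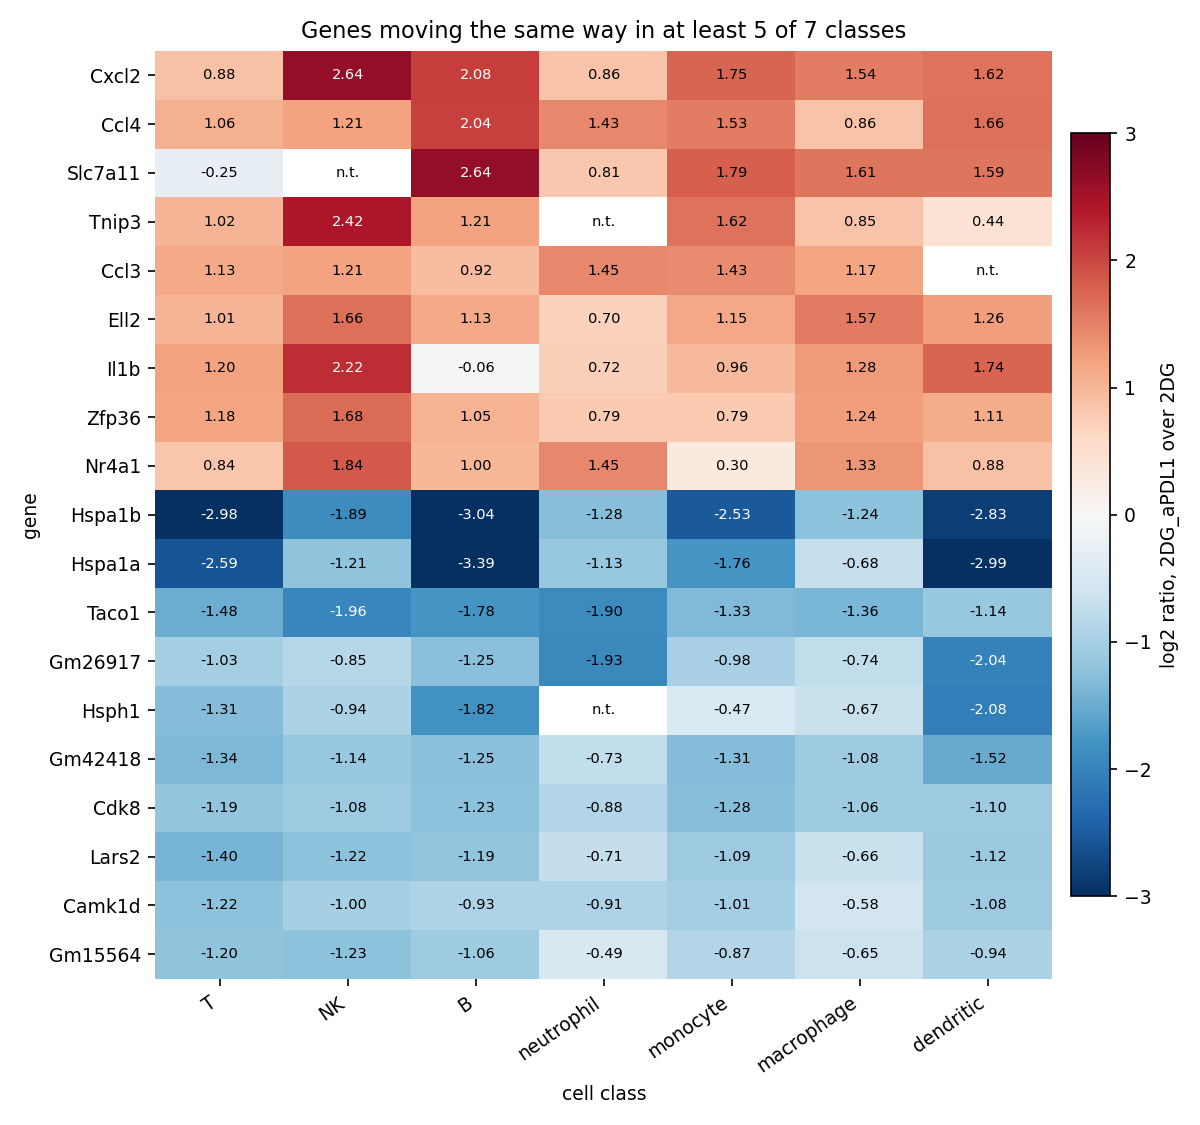
Log2 ratios (combination over 2DG library, 5 CPM added, colour scale) of the leading higher and lower genes among those past 0.58 in at least 5 of the 7 classes, with classes as columns and genes as rows; n.t. marks a gene with under 50 UMIs. Hspa1b is below -1 in all 7 columns, and Cxcl2, Ccl4 and Ell2 are above 0.58 in all 7.

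The immediate early list (16 genes that cells transcribe within minutes of stimulation, such as Fos, Junb and Egr1) had a median above 0 in every population. This median log2 ratio was 0.96 in conventional CD4 T cells, 0.83 in macrophages, 0.81 in NK cells, 0.73 in CD8 T cells, 0.63 in B cells, 0.55 in neutrophils, 0.48 in regulatory T cells, 0.40 in monocytes and 0.36 in dendritic cells, where medians over all genes were between -0.07 and 0.06. The dendritic value was 0.15 with a stricter gate and 0.51 with a looser one. From 0 to 6 of its genes were past 2-fold higher and 0 lower, where 0.494% to 2.09% of all genes were past 2-fold higher. Fos, a part of the AP-1 transcription factor, was at 159.9 CPM in the 2DG library and 342 CPM in the combination library in CD8 T cells (1.07) and at 1295 CPM in the 2DG library and 2499.6 CPM in the combination library in macrophages (0.95). Egr1 was at 1.35 in NK cells, 1.18 in macrophages and 1.01 in monocytes, but at -0.15 in B cells.

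CD8 T cells (1403 cells of the 2DG library, 1784 of the combination library) carried more RNA of some killing and checkpoint genes in the combination library, with no gene of either list past 2-fold higher. Of 11220 genes 76 were past 2-fold higher (0.677%) and 34 lower (0.303%). Gzmb, the granzyme that starts death in the target cell, was at 444 CPM (432 to 458) and 711 CPM (696 to 726), a log2 ratio of 0.67. Ifng, the cytokine interferon gamma, was at 429.9 CPM (417 to 443) and 568 CPM (554 to 581), a log2 ratio of 0.40, and the pore protein gene Prf1 at 359 CPM (347 to 370.4) and 477 CPM (465 to 489), a log2 ratio of 0.41. These intervals cover counting error only and are narrow because the UMIs of many cells were summed. How many of the 11220 genes have intervals that do not overlap was not counted. Cells with an Ifng UMI were 66.9% and 74.2% of CD8 T cells, and 41.6% and 49.5% after thinning to 2000 UMIs; in B cells, which should lack the gene, they were 2.52% and 1.65%. Median UMIs per cell were 6255 and 6110 in CD8 T cells and 5151 and 4766 in B cells. Not all effector genes followed, as Xcl1, a chemokine for cross-presenting dendritic cells, was lower (98.1 against 45.5 CPM, -1.03) and Tnf stood at 38.1 and 38.8 CPM. Over the 16 genes compared of the 18 in the cytotoxicity list the median was 0.31, with 11 above 0 (45.6% of all genes were) and 0 past 2-fold higher. In the 2FF library 76.4% of CD8 T cells had an Ifng UMI and 57.2% a Gzmb UMI, more than the 74.2% and 54.5% of the combination library. After thinning, 2FF and 2FF plus anti-PD-L1 had 52.6% and 46.4% for Ifng and 43.9% and 37.5% for Gzmb. Control and anti-PD-L1 had 26.0% and 45.4% for Ifng and 28.4% and 32.9% for Gzmb after thinning.

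Of the checkpoint receptors, Ctla4 was at 485 CPM (471 to 499) and 838 CPM (822 to 855), a log2 ratio of 0.78, and Havcr2, the TIM-3 gene typical of exhausted cells, at 203 CPM (194 to 212) and 316 CPM (307 to 326), a log2 ratio of 0.63. Pdcd1 itself was at 179 CPM (171 to 187) and 235 CPM (227 to 244), a log2 ratio of 0.39. Cells with a Havcr2 UMI were 44.3% (41.7 to 46.98) and 56.7% (54.4 to 59.04) of CD8 T cells, against 5.88% and 4.24% of B cells. Cells with a Pdcd1 UMI were 54.4% and 62.2%, against 1.68% and 0.941% of B cells. For Havcr2 the control, anti-PD-L1, 2FF and 2FF plus anti-PD-L1 libraries had 52.8%, 53.7%, 58.6% and 57.1% of CD8 T cells with a UMI. Tigit (0.09) and Lag3 (0.28) differed less, and the exhaustion factor Tox was the other way (1544 against 1254 CPM, -0.30). Over the 16 checkpoint genes compared the median was 0.17, with 11 above 0 and 0 past 2-fold. Tnfrsf9, the costimulatory receptor 4-1BB that marks recent antigen contact, was past it, at 147 CPM (139.6 to 155) and 305 CPM (295 to 314), a log2 ratio of 1.03.

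Genes of memory and circulation formed a mixed picture in the same cells. Il7r, the survival receptor of memory cells, was at 79.9 CPM (74.5 to 85.6) and 193 CPM (186 to 201), a log2 ratio of 1.22, and cells with a UMI of it were 22.7% (20.6 to 25.02) and 39.5% (37.2 to 41.8), against 5.04% and 3.29% of B cells. Klf2, the factor that keeps T cells circulating, had a log2 ratio of 1.37 (61.5 against 167 CPM) and the chromatin organiser Satb1 one of 1.26 (222 against 537 CPM). Yet Tcf7, the factor of stem-like T cells, was lower (41.9 against 28.5 CPM, -0.48), with a UMI in 15.8% (13.95 to 17.8) and 10.4% (9.05 to 11.9) of cells. Eomes, an effector-memory factor, was at 145 and 85.9 CPM (-0.72), and Itgae, the CD103 integrin that holds T cells in epithelium, at 51.2 and 26.3 CPM (-0.85). Of the 20 T cell fate factors 12 were above 0 and 3 were past 2-fold higher, with a median of 0.35. In the other 4 libraries Il7r lay between 132 and 226 CPM in CD8 T cells, so the 2DG library was the lowest of the 6.

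The extremes of each population are given by the rule for named genes, that is among genes found in at least 5% and 20 cells of the higher library, without class markers, unnamed genes or genes whose CPM there was under 20% of that in another class, so genes outside the rule can lie further out. By it the 3 genes with the highest ratio in CD8 T cells were Abcb1b, a drug efflux pump, at 77.9 CPM (72.5 to 83.5) and 342 CPM (332 to 353), a log2 ratio of 2.07, Ece1, which processes endothelin (1.57), and Nmrk1, an enzyme of NAD synthesis (1.53). For Abcb1b the combination library was the highest of the 6, since the other 4 had 98.5, 95.7, 91.8 and 179.6 CPM in the order control, anti-PD-L1, 2FF and 2FF plus anti-PD-L1. By the same rule the lowest were Hspa1b (-3.37), Hspa1a (-3.02) and Rnf43, a brake on Wnt receptors (109 against 31.4 CPM, -1.65). Interferon gamma pathway genes, the answer to Ifng rather than its source, had a median of 0.14 over 26 genes; with mixed cells removed that median was -0.08. MHC class II genes, which mouse T cells do not make, had a median of 0.65, which was 0.23 with mixed cells removed. The 17 cell cycle genes had a median of 0.04 with 0 past 2-fold, while cells with a Mki67 or Top2a UMI were 46.3% and 37.8% (23.3% and 19.2% after thinning).

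Conventional CD4 T cells (649 and 461 cells) had the widest spread of the T cell subsets, with 162 of 9362 genes past 2-fold higher (1.73%) and 110 lower (1.17%). Among genes known from cytotoxic CD4 T cells, Eomes, Gzmk and Ccl5 were lower in the combination library and some others were not. Eomes was at 148 CPM (138 to 159.6) in the 2DG library and 41.7 CPM (34.5 to 49.9) in the combination library (-1.72), and Gzmk, a granzyme of Eomes-bearing cells, at 133 CPM (123 to 144) and 45.2 CPM (37.7 to 53.7), a log2 ratio of -1.46. Ccl5, a chemokine of cytotoxic cells, was at 4834 and 2398 CPM (-1.01). Cells with a UMI of Eomes or Gzmk were 53.2% (49.2 to 57.1) of the conventional CD4 T cells in the 2DG library and 18.0% (14.6 to 21.8) in the combination library, and 33.1% and 10.3% after thinning, while 0 of 119 and 5 of 425 B cells had one. In the other 4 libraries Eomes stood at 156, 62.6, 26.7 and 35.9 CPM in the same order as above, so the 2DG library resembled the control library and the combination library lay among the other 3. Gzmb (-0.05), Ifng (0.34) and Tbx21, the T helper 1 factor (0.44), were near 0 or above it. Cells with a Gzmb UMI were nonetheless 17.3% (14.4 to 20.4) and 9.54% (7.02 to 12.6), and 8.003% and 5.67% after thinning. Over the 16 genes compared of the cytotoxicity list the median was 0.23, with 11 above 0 (43.7% of all genes were), 3 past 2-fold higher and 3 lower.

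Genes of resting and recirculating T cells were higher instead. Il7r was at 99.5 CPM (90.7 to 109) and 361 CPM (339 to 384), a log2 ratio of 1.81, Klf2 at 58.01 and 188 CPM (1.61), and the lymph node homing receptor Ccr7 at 18.01 and 44.9 CPM (1.12). S1pr1, the receptor for leaving tissue, was at 16.3 and 42.4 CPM (1.15). Of the 8 genes of the naive lymphocyte list 6 were compared, all 6 were above 0 (43.7% of all genes were) and 4 were past 2-fold, with a median of 1.13. Cell cycle genes went the other way: 0 of 17 were above 0, the median was -0.69, and Mki67 was at 178 and 93.6 CPM (-0.89). Cells with a Mki67 or Top2a UMI were 50.8% and 32.1% (26.7% and 15.6% after thinning). Cells with an Il7r UMI were 22.8% and 48.6%. As given above, Il7r was higher in NK cells, monocytes, macrophages and dendritic cells too.

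Ctla4 was at 592 CPM (570.0 to 614) and 1192 CPM (1152 to 1233) in the conventional CD4 T cells (1.005). By the rule for named genes the 3 highest were Hs6st3, a heparan sulfate sulfotransferase (2.495), Klrd1, the CD94 receptor of NK and activated T cells (56.3 against 332 CPM, 2.46), and Ramp3, which partners peptide hormone receptors (2.31). Dscam, a neuronal adhesion molecule, was among the 3 lowest with Hspa1b and Hspa1a, at 393 and 62.9 CPM (-2.55). Gzmf, outside that rule, had a log2 ratio of 4.45 from 5 cells of the combination library, 1 of which held 66.1% of its UMIs.

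**Figure D3:**
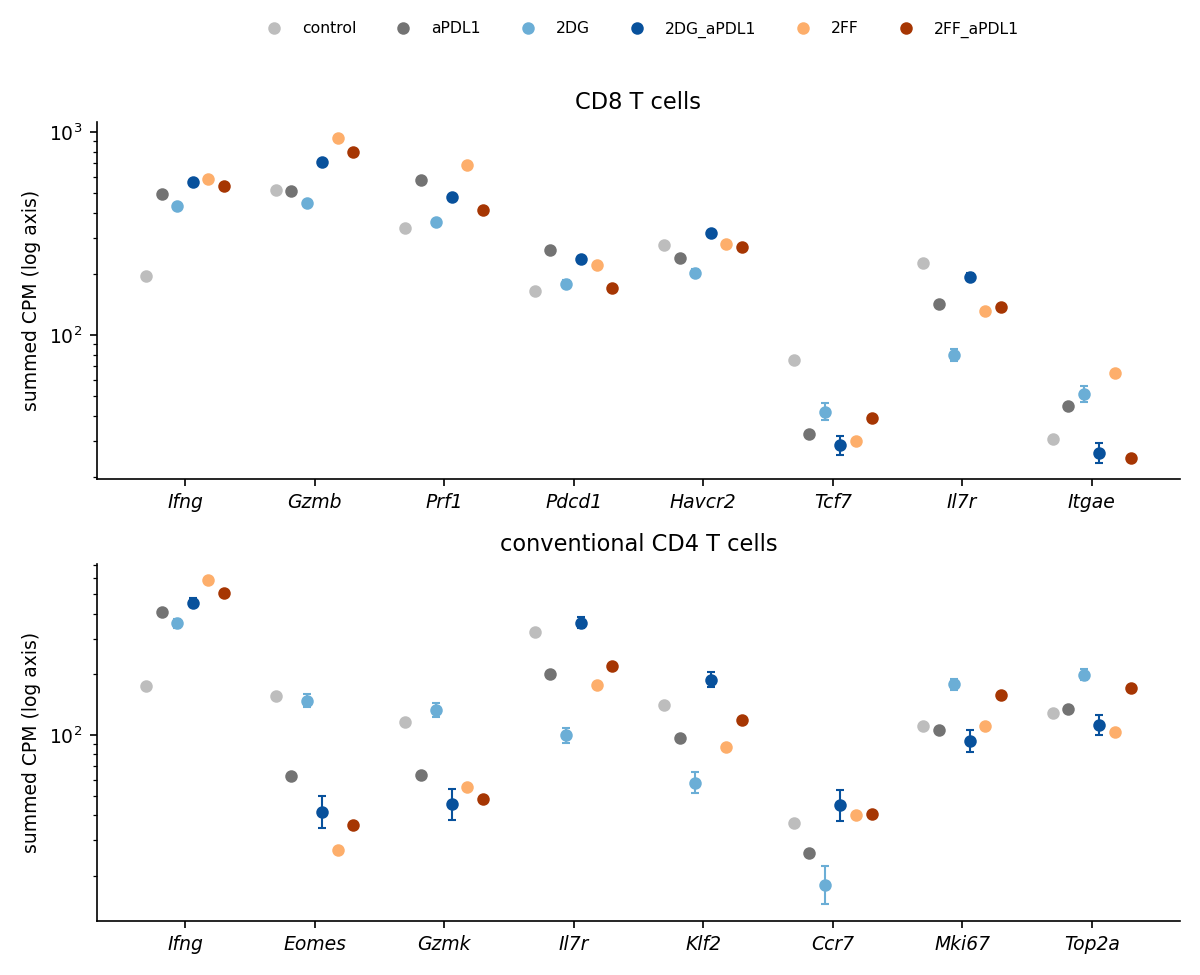
Levels (CPM, log axis) of genes in CD8 and conventional CD4 T cells in the 6 libraries, 1 point per library, with 95% Poisson bars (counting error only) on the 2DG and combination libraries. In conventional CD4 T cells the combination points lie below the 2DG points for Eomes and Gzmk and above them for Il7r and Klf2; in CD8 T cells they lie above for Ifng, Gzmb, Prf1, Pdcd1, Havcr2 and Il7r and below for Tcf7 and Itgae.

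Regulatory T cells (395 and 218 cells) were fewer in the combination library, and those present held more Areg, the tissue-repair growth factor amphiregulin. Areg was at 199.6 CPM (183 to 217) and 692 CPM (647 to 738), a log2 ratio of 1.77, with a UMI in 38.2% (33.41 to 43.2) and 53.7% (46.8 to 60.4) of cells, and in 22.6% and 41.9% after thinning. Of B cells 0 of 119 and 2 of 425 had one. In the other 4 libraries, in the order control, anti-PD-L1, 2FF and 2FF plus anti-PD-L1, it stood at 158, 294, 549 and 505 CPM. Of 7668 genes 54 were past 2-fold higher (0.704%) and 50 lower (0.652%). The other 2 highest genes by the rule for named genes were Hopxos (1.78), a transcript antisense to Hopx whose counts depend on strand, and Klf2 (96.2 against 280.0 CPM, 1.49). Ctla4, by which regulatory cells strip costimulation from dendritic cells, was at 1629 CPM (1582 to 1677) and 2699.6 CPM (2611 to 2790.1), a log2 ratio of 0.73, and the interleukin 2 receptor gene Il2ra at 1017 and 1486 CPM (0.54). The lineage factor Ikzf2 (-0.03) and Tnfrsf18 (0.12) were near 0. Over the 11 regulatory T cell genes the median was 0.12 with 1 past 2-fold. By the rule for named genes the lowest with Hspa1b were Sema6d, a guidance molecule (80.8 against 17.6 CPM), and the galactosyltransferase B3galt1 (-1.61). Arg1 (-1.97) rested on 1 cell with 70.7% of its UMIs.

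NK cells (252 and 390 cells), which kill without prior priming, had stimulation genes among their highest ratios. Of 6843 genes 97 were past 2-fold higher (1.42%) and 26 lower (0.38%). Nr4a1 was at 60.9 CPM (49.3 to 74.4) and 232 CPM (211 to 254), a log2 ratio of 1.84, and Zfp36 at 165 and 540.3 CPM (1.68). Klf2 was at 368 and 951 CPM (1.36). Their chemokines Ccl3 and Ccl4 both had a log2 ratio of 1.21. The killing genes were closer together: Gzmb 0.42, Ifng 0.44, Prf1 -0.12 and Gzma 0.08. Of the 13 cytotoxicity genes compared 2 were past 2-fold higher and 1 lower, the lower one being Gzmc (291 against 54.97 CPM, -2.303), which came from 30 and 15 cells. MHC class II genes had a median of 1.93, with H2-Aa at 21.8 and 109 CPM; 1 cell held 27.03% of its UMIs in the combination library, and the median was 1.49 with mixed cells removed. Macrophage markers summed to 16.7 and 48.6 CPM in the gated NK cells.

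B cells were 3.03-fold more frequent in the combination library, and the 119 cells of the 2DG library limit what can be read of their genes. Of 6593 genes 99 were past 2-fold higher (1.5%) and 76 lower (1.15%). By the rule for named genes the 3 lowest were heat shock genes: Hspa1a (191 against 13.7 CPM, -3.39), Hspa1b (-3.04) and Hsph1 (-1.82). The 3 highest by that rule, the exchange factor gene Arhgef10 (1.82), the chromatin remodeler subunit Ino80e (1.79) and the dynein light chain Dnal1 (1.67), were found in only 2 to 4 cells of the 2DG library. Cd86, the costimulatory ligand of activated B cells, was at 743 CPM (681 to 810.3) and 1078 CPM (1037 to 1119), a log2 ratio of 0.53, and MHC class II genes, their antigen presentation, had a median of 0.10 with 0 of 8 past 2-fold. Ribosomal protein genes were higher as a set, with 80 of the 81 compared above 0 (46.1% of all genes were) and a median of 0.61. In CD8 T cells 79 of 81 were above 0 and the median was 0.30. Of these genes Rps27 was higher in all 7 classes, from 0.47 in macrophages to 0.94 in B cells, so its difference was not particular to lymphocytes. Plasma cells, the antibody-secreting stage, were 9 and 12 cells.

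Monocytes (1325 and 2115 cells) held more chemokine RNA in the combination library, and fewer genes than in any other class were past 2-fold relative to the number compared: 53 of 10738 higher (0.494%) and 20 lower (0.186%). When ratios were centred on their median these were 73 higher and 13 lower. Cxcl9, the T cell chemokine induced by interferon gamma, was at 227 CPM (218 to 237) and 597 CPM (584 to 609.7), a log2 ratio of 1.37. Cxcl10, its relative that type I interferon also induces, was at 403 CPM (391 to 416) and 886 CPM (871 to 901), a log2 ratio of 1.13. Cells with a Cxcl9 UMI were 18.9% (16.8 to 21.1) and 27.04% (25.2 to 28.99), against 5.04% and 4.24% of B cells. Cells with a Cxcl10 UMI were 29.5% (27.1 to 32.05) and 50.2% (48.1 to 52.4), against 5.88% of B cells in both libraries, and 19.5% and 37.9% after thinning. Among the 6 libraries the combination was the highest in both genes, with anti-PD-L1 alone at 531 CPM of Cxcl9 and 2FF plus anti-PD-L1 at 857 CPM of Cxcl10.

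The interferon lists were higher together in these cells. All 19 type I interferon-stimulated genes compared were above 0 (38.5% of all genes were), with a median of 0.58, and 4 were past 2-fold: Rsad2 (1.01), Isg15 (248 against 519 CPM, 1.05), Ifit3 (1.03) and Isg20 (1.01). Of the 28 interferon gamma pathway genes compared 22 were above 0 and 2 were past 2-fold, Cxcl9 and Cxcl10, with a median of 0.31; Gbp5 was at 0.69, Iigp1 at 0.83 and the regulator Irf1 at 0.11. MHC class I presentation had a median of 0.25, with H2-T23 (1.205) past 2-fold and H2-K1 at 0.15. MHC class II was not part of this, with a median of -0.23.

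Inflammatory chemokines and cytokines were the most displaced list in monocytes, with 25 of 28 above 0, 9 past 2-fold higher, 0 lower and a median of 0.87. Ccl4 was at 389 CPM (377 to 402) and 1133 CPM (1115 to 1150.1), a log2 ratio of 1.53, with a UMI in 38.5% and 62.9% of cells. Cxcl2 was at 855 CPM (837 to 873) and 2887 CPM (2859.9 to 2915), a log2 ratio of 1.75 and Ccl2, which calls more monocytes, at 194 and 513 CPM (1.38). The restraining members were higher as well, with Il1rn, the interleukin 1 antagonist, at 1.26 and Il10 at 9.44 and 21.03 CPM (0.85), while Tnf was at 0.57. Tnip3, an inhibitor of NF-kappaB signaling, had the highest ratio by the rule for named genes, which leaves out Slc7a11 and Cxcl2, at 155 CPM (147 to 163) and 488 CPM (477 to 499.7), a log2 ratio of 1.62. The combination level of Cxcl2 was below that of the control library (5013 CPM) and near that of 2FF plus anti-PD-L1 (2769.8 CPM), and the 2DG library was the lowest of the 6. Of the 19 suppressive and tumor macrophage genes compared in monocytes 11 were above 0 (38.5% of all genes were), 2 were past 2-fold higher and 0 lower, and the median was 0.15; among its members Arg1, which depletes arginine, was at 1173 and 908 CPM (-0.37), Spp1 (osteopontin) at -0.39 and Fn1 (fibronectin) at 1205 and 786 CPM (-0.61).

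Macrophages (862 and 990 cells), the resident phagocytes, had like shares in both libraries and 87 of 10727 genes past 2-fold higher (0.811%) and 31 lower (0.289%). Their Cxcl9, high in both, was at 1116 CPM (1094 to 1139) and 1386 CPM (1363 to 1409), a log2 ratio of 0.31, a UMI being found in 61.7% and 66.3% of cells. Ccl5 was at 515 and 1073 CPM (1.05) and Il1b, the fever cytokine interleukin 1 beta, at 436 CPM (422 to 449.7) and 1062 CPM (1042 to 1082), a log2 ratio of 1.28. By the rule for named genes the 3 highest were Olr1, a scavenger receptor for oxidised lipoprotein (26.3 against 107 CPM, 1.84), Cxcl1 (1.59) and Ell2 (1.57). Of tumor macrophage genes, Arg1 was at 3338 and 2712 CPM (-0.30), Spp1 at -0.38, and Hmox1, which degrades heme, at 337 and 185 CPM (-0.85), whereas the lipid carrier Fabp5 was at 746 and 1488 CPM (0.99). The 19 genes of that list thus had a median of -0.02. Interferon gamma pathway genes had a median of 0.28, 22 of 28 being above 0 (40% of all genes were). By the same rule the lowest genes were Fgf13 (-1.52), Pde4c (-1.49) and Taco1 (-1.36), found in 26 to 249 cells.

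Neutrophils (352 and 275 cells) were fewer and held less RNA of granule proteins in the combination library. Of 5023 genes 105 were past 2-fold higher (2.09%) and 102 lower (2.03%). Granule proteins are made while neutrophils mature in the marrow, and all 9 compared of the 10 listed were below 0 (55.6% of all genes were above it), 8 of them past 2-fold, with a median of -1.36. Ngp was at 4260.4 CPM (4155 to 4368) and 1947 CPM (1858 to 2040.1), a log2 ratio of -1.13, Lcn2 at 3041 and 1308 CPM (-1.21), and Mmp8, neutrophil collagenase, at 438 and 165 CPM (-1.38). Cells with a UMI of Camp, Ngp or Ltf were 17.6% (13.8 to 22.003) and 8.36% (5.38 to 12.3) of neutrophils (15.5% and 7.69% after thinning), and 2.52% and 0.941% of B cells. The same share of neutrophils was 10.87% with control and 18.69% with anti-PD-L1. It was 10.16% (7.66 to 13.14) with 2FF and 15.01% (11.45 to 19.17) with 2FF plus anti-PD-L1. With the antibody the share was thus lower beside 2DG and higher in the other pairs, with overlapping intervals for 2FF. Lower levels were not particular to granule genes, since the markers that gated neutrophils summed to 86476 and 44599 CPM. In the control, anti-PD-L1, 2FF and 2FF plus anti-PD-L1 libraries that sum was 54519, 84707, 40437 and 68864 CPM. Whether the granule values reflect the stage of the cells was not tested. Neutrophils had median depths of 2952 and 2639 UMIs. Elane, Mpo and Prtn3, of the earliest stage, came in the 2DG library mostly from 1 cell, which held 96.8%, 100% and 91.2% of their UMIs. In the combination library 1 cell held 38.2% of Camp.

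Of the 20 myeloid chemokines and cytokines compared in neutrophils 14 were above 0, 5 were past 2-fold higher and 2 lower, with a median of 0.64. Cxcl2 was at 11357 and 20583 CPM (0.86), Ccl3 at 835 and 2287 CPM (1.45), and Il1b at 4543 and 7474 CPM (0.72). Ccl5 (-1.13) and Cxcl9 (-1.08) were below 0, and above it with a looser gate. By the rule for named genes Cxcl1 had the highest ratio (2.57) from 10 and 28 cells, before Dus2, a tRNA-modifying enzyme (2.26), and the proton pump subunit Atp6v0d2 (1.92). Cd274 was at 1176 CPM (1121 to 1232) and 1666 CPM (1583 to 1752), a log2 ratio of 0.50, the widest Cd274 difference among the 7 classes. Arg1 (-2.57) came from 1 cell with 69.7% of its UMIs in the 2DG library, and its ratio was -1.01 with a stricter gate. The lipase gene Lipg (-1.95) and the receptor Lrp12 (-1.75) were 2 of the 3 lowest by the rule for named genes, with Taco1.

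Dendritic cells numbered 266 and 96, so their 106 genes past 2-fold higher (1.36%) and 158 lower (2.03%) of 7767 rest on few cells of the combination library. Cells with Xcr1 or Clec9a, markers of the cross-presenting type, were 42.5% (36.5 to 48.7) and 27.1% (18.5 to 37.1), and cells with Fscn1 or Ccl22, markers of mature migrating cells, 68.8% and 76.0%. The intervals of the first pair overlapped slightly and those of the second pair widely. These genes are among the 9 markers that gated the dendritic cells, so the shares depend on how the cells were chosen. Median depths were 12968 and 9366.5 UMIs in the 2DG and combination libraries. After thinning, the shares were 29.1% and 18.1% for the first pair and 52.9% and 63.0% for the second. Ccr7, with which mature cells travel to lymph nodes, was at 805 CPM (776 to 834) and 1555 CPM (1479 to 1634), a log2 ratio of 0.95. Il1b was at 234 and 795 CPM (1.74), and Fabp5 at 1351 and 3189 CPM (1.24). Within the gated dendritic cells their own markers summed to 3718 and 2861 CPM, neutrophil markers to 364 and 676 CPM and monocyte markers to 198 and 296 CPM, and the part of these in the class's differences was not tested. Cxcl9, in contrast to monocytes, was at 453 and 368 CPM (-0.30), and Cd274 at 0.28. Spock1, a matrix proteoglycan, was at 95.7 CPM in the 2DG library (20 cells) and had 0 UMIs in the combination library, at least 32.0-fold lower when the floor is set at 3 UMIs for the library. Airn, an imprinted RNA antisense to Igf2r, was at 62.5 and 1.99 CPM. By the rule for named genes the highest were Selenom (1.99), Edil3 (1.91) and Ccdc138 (1.88), found in 23 to 30 cells of the combination library. Spp1 (-2.24) came from 1 cell with 79.6% of its UMIs and stood at -0.18 with a stricter gate.

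**Figure D4:**
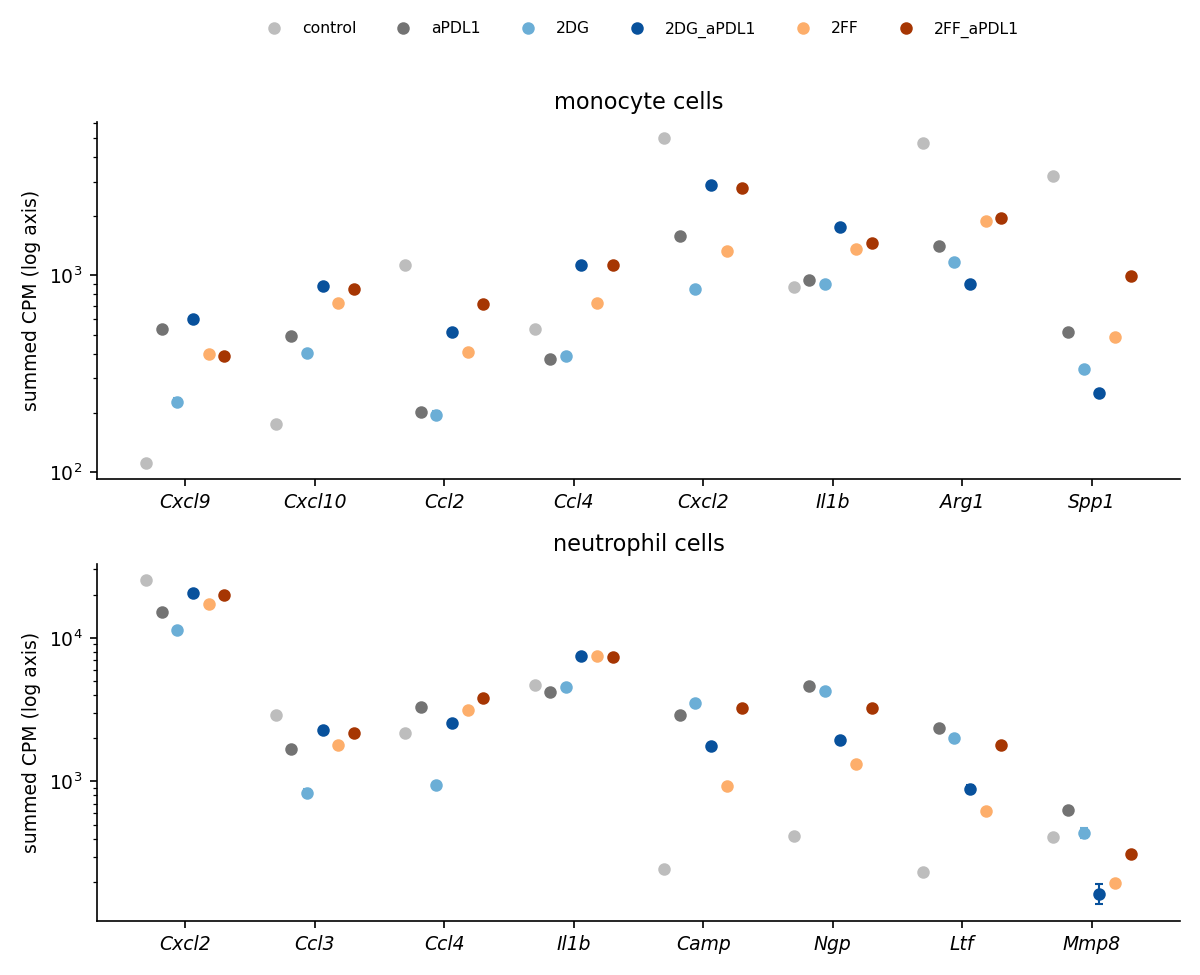
Levels (CPM, log axis) of chemokine, cytokine and granule genes in monocytes and neutrophils of the 6 libraries, 1 point per library, with 95% Poisson bars (counting error only) on the 2DG and combination libraries. Cxcl9, Cxcl10 and Ccl4 of monocytes lie higher in the combination library, and the granule genes of neutrophils lower.

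Lists tied to the action of 2DG itself differed little between the libraries, both of which came from treated mice. Glycolysis and lactate export had medians from -0.33 in B cells to 0.19 in conventional CD4 T cells. N-glycan synthesis and branching had medians from -0.14 in dendritic cells to 0.17 in neutrophils, and Mgat5, which makes the branch at the end of that pathway, lay between -0.32 in regulatory T cells and 0.14 in NK cells. Endoplasmic reticulum stress genes had medians from -0.18 in dendritic cells to 0.24 in macrophages, and Hspa5, the chaperone BiP, was highest in neutrophils (0.54) and monocytes (578 against 764 CPM, 0.40). Cd274, the target of the antibody, was between -0.39 in regulatory T cells and 0.50 in neutrophils. In each population these 3 lists had at most 1 gene past 2-fold in either direction. They were chosen with earlier results of the same libraries known.

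**Figure D5:**
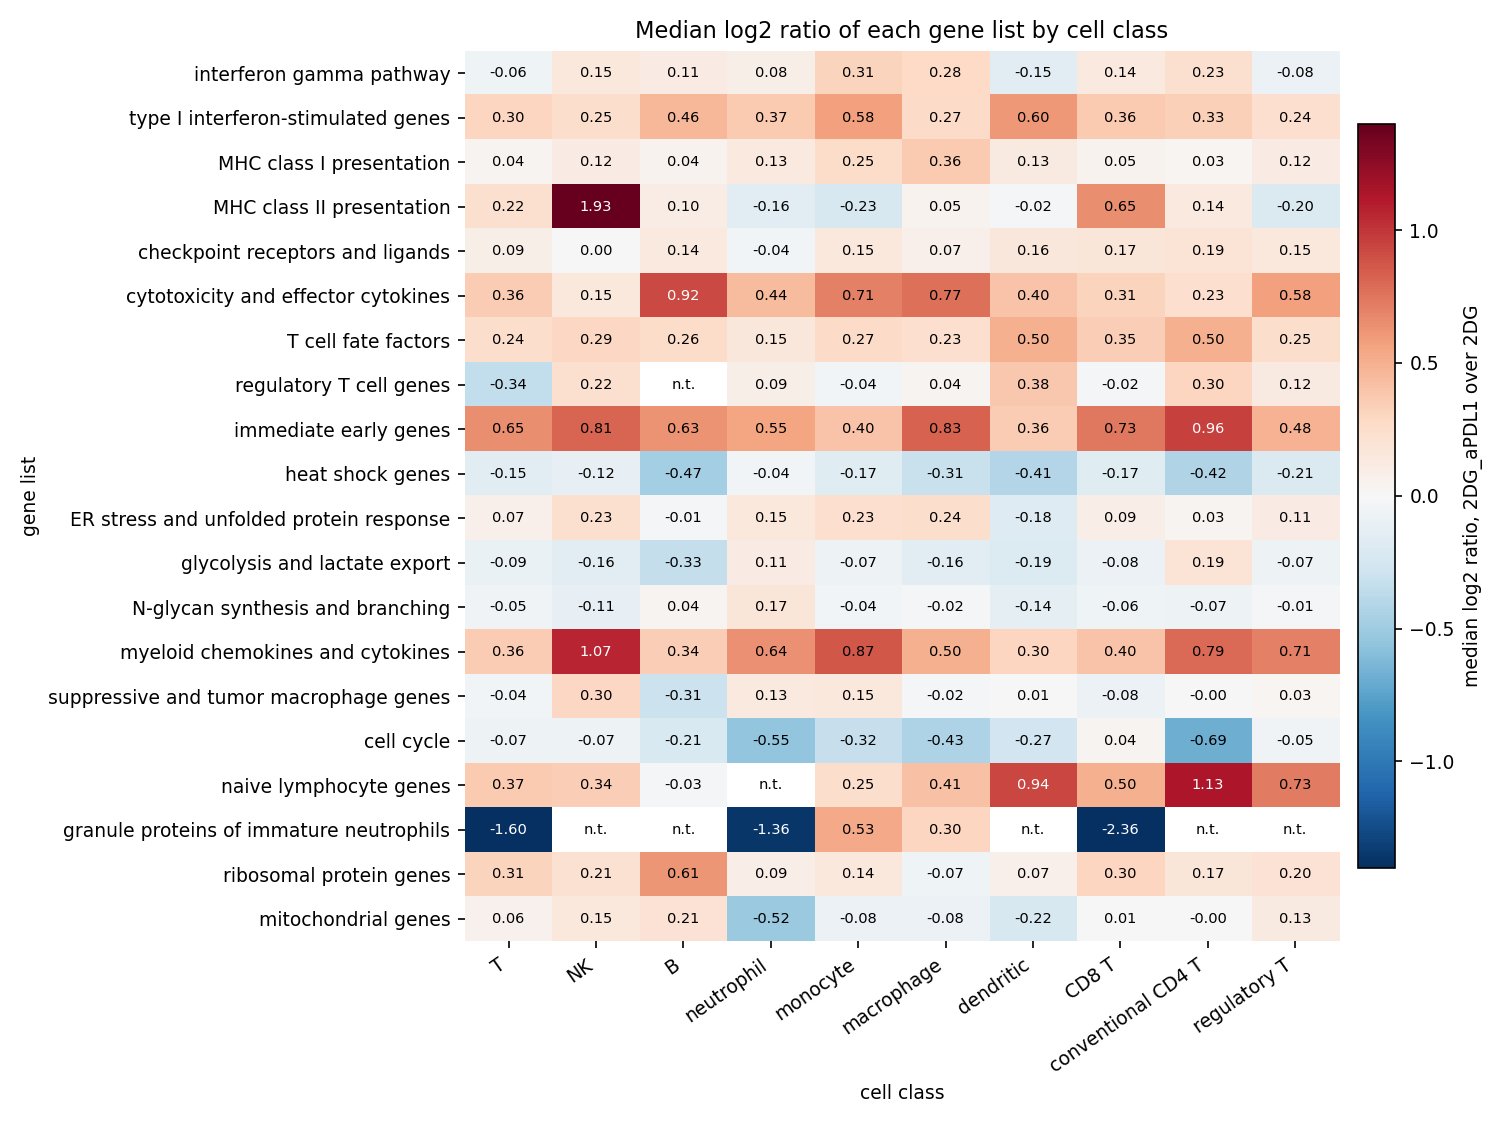
Median log2 ratio (combination over 2DG library, 5 CPM added) of each gene list in each population, for lists with at least 3 genes compared. Immediate early genes are above 0 in all populations, heat shock genes below 0 in all (in neutrophils only at -0.04), granule proteins at -1.36 in neutrophils, and N-glycan lists between -0.14 and 0.17; the granule values of T and CD8 T cells rest mainly on 1 cell.

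Anti-PD-L1 was also added to 2FF and to solvent, in pairs that share no library with the 2DG pair, and their values are given side by side. NK cells were a larger share with the antibody in all 3 pairs (1.31, 1.24 and 3.76 points for 2DG, 2FF and control). Monocytes were larger by 7.80, 12.4 and 0.14 points, the last with an interval that held 0 (-1.43 to 1.71). T cells were different by -7.72 points with 2DG, by -10.05 with 2FF and by 35.3 with control. Regulatory T cells were smaller among T cells with 2DG and control (-6.12 and -9.65 points) and larger with 2FF (6.13). B cells were larger with 2DG and control (4.01 and 2.37 points) and differed by -0.65 with 2FF, where the interval held 0. Whether these differences between pairs exceed those between mice was not testable with 1 library each.

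Gene by gene, the share of large differences that the antibody pairs had in common varied with the class and the pair. Of the 70 genes past 2-fold higher in T cells with 2DG and also compared with 2FF, 2 were past 2-fold higher there too (2.86%, and 16.7% of the 12 called with 2FF). Over all genes of T cells, 0.57% were past 2-fold higher and 0.329% lower with 2DG, 0.114% higher with 2FF and 1.29% lower with control. In macrophages they were 16 of 82 (19.5%, and 53.3% of the 30 called with 2FF), where 0.276% of all genes were called with 2FF. In T cells 18 of the 35 genes lower with 2DG were also lower with anti-PD-L1 over control (51.4%, and 12.5% of 144). In monocytes, Cxcl9 had log2 ratios of 1.37 with 2DG, -0.04 with 2FF and 2.203 with control, and Cxcl2 of 1.75, 1.05 and -1.65. In CD8 T cells Ctla4 was at 0.78, -0.20 and -0.31, and Il7r at 1.22, 0.06 and -0.66. In conventional CD4 T cells Eomes was at -1.72, 0.37 and -1.25.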

How the data were processed

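Single-cell RNA was captured with 10x Genomics chemistry, 1 library from 1 mouse in each of 6 groups. The deposited files hold UMI counts per gene and cell barcode, which the authors made with Cell Ranger and STAR on mm10 and did not normalize. The matrix headers name Cell Ranger 7.0.0, and the submitters' processing notes name 3.1.0.

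Groups were taken from the sample labels. Cells with at least 250 genes and at most 5% mitochondrial UMIs were kept. Each cell was given the class with the most detected markers out of 14 lists, if it had at least 3 markers and led the next class by at least 2; dendritic cells had 9 markers and the other 6 main classes fewer. T cells were split by UMIs of Cd8a or Cd8b1, Cd4 and Foxp3. No doublet caller was run, and cells with at least 3 markers of a lymphoid and a myeloid class were removed as an alternative.

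UMIs were summed per class and library and given for each 1000000 UMIs of the class (CPM). Log2 ratios were taken after adding 5 CPM, which understates differences of low genes, for genes with at least 50 UMIs over both libraries. Intervals at 95% were Poisson for levels, Clopper-Pearson for shares and Newcombe for differences of shares, and cover counting error only. Detection shares were repeated after each cell was thinned to 2000 UMIs, leaving out shallower cells. With 1 library per group no test was run.

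Named genes were 12 set genes, the 3 highest and 3 lowest per class among genes found in at least 5% and 20 cells of the higher library (leaving out genes whose CPM there was under 20% of that in another class), listed genes past a log2 ratio of 0.58, and up to 10 genes past it in at least 5 classes. Class markers, mitochondrial, ribosomal, immunoglobulin, T cell receptor, haemoglobin and unnamed genes were left out of the extremes. Some genes that met the rule are not reported here. The classes, members and gene lists were chosen with earlier results of these data known. Of 32285 features, 78 whose symbol repeats were left out, and 3 of the 430 listed symbols (Ahsp, Cxcl11, Mx1) had no feature. Gene positions are those of GENCODE M21 (GRCm38) and promoter sequences those of RefSeq (GRCm38.p6). The scripts ran on Python 3.11.15 with numpy 2.4.6, scipy 1.17.1, pandas 2.3.3 and matplotlib 3.10.9, and were tested on simulated data.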

Additional observations from a re-analysis of the deposited data

Results flagged for a closer look

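Shares that differed one way when anti-PD-L1 was added to 2DG and the other way when it was added to another background are given here. None of these differences between pairs was tested, since each side is 1 library. The share of T cells among the 7 classes differed by -7.72 percentage points with 2DG and by 35.3 points with control, where the control library held 47.5% neutrophils. The share of CD8 T cells among T cells differed by 14.3 points with 2DG and by -8.35 points with 2FF. Conventional CD4 T cells differed by -6.38 points with 2DG and by 2.87 points with 2FF. Regulatory T cells differed by -6.12 points with 2DG and by 6.13 points with 2FF.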

How the results depend on the processing

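No paired analysis was possible because each group had 1 library, and no replicate could be left out. Of the 42 values of class shares under other settings 37 stayed within their counting interval and none reversed, a reversal not being counted for macrophages. With all kept cells as the denominator the differences were -5.85 points for T cells, 3.16 for B cells, 6.23 for monocytes and -2.39 for dendritic cells, and -2.29 for dendritic cells with cells thinned to 2000 UMIs, which also gave -2.67 for regulatory T cells among T cells (-6.12 unthinned). Counts of genes past 2-fold moved with the handling of low genes: with 1 CPM added they were 240 in T cells (112 with 5 CPM), 191 in monocytes (73), 271 in macrophages (118) and 428 in dendritic cells (264). With at least 10 UMIs they were 249 in NK cells (123 with at least 50), 405 in B cells (175), 526 in neutrophils (207) and 400 in dendritic cells, and with at least 200 UMIs 57, 42, 62 and 119. A stricter gate gave 410 in dendritic cells. Centring on the median changed the monocyte split from 53 higher and 20 lower to 73 and 13 and the neutrophil split from 105 and 102 to 91 and 123, and 1 CPM changed the macrophage split from 87 and 31 to 142 and 129.

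A reversal was counted only for genes past 2-fold in the main setting, with 2616 of the 5360 gene values under other settings. Of those 2616 values 6 reversed. These were Gzmf in T cells (-0.27 with mixed cells removed), Fn1 in B cells (0.33 with a looser gate), Ccl5, Cxcl9 and Fn1 in neutrophils (0.087, 0.30 and 0.28 with a looser gate) and Il1b in regulatory T cells (-0.77 with a stricter gate). The median of the myeloid chemokines in regulatory T cells was -0.012 with at least 10 UMIs. The cause was not tested.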

Other observations

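Cxcl13, a chemokine that draws B cells, had 15 UMIs in the 2DG library and 508 in the combination library, and 0 to 89 in the other 4. In macrophages it was found in 3 and 18 cells. Plasmacytoid dendritic cells, the main makers of type I interferon, were 39 and 36 cells, mast cells or basophils 1 and 1, and fibroblasts 12 and 3. No cell was gated as endothelial in either library, which, with the limit of a 0 set at 3 cells, allows a share of up to 0.0389% in the 2DG library and 0.0332% in the combination library.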
